A study of Mus musculus with 18 samples.

Results

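The genes around Irx4 on mouse chromosome 13 were followed in RNA of E14.5 heart ventricles. Members are the protein-coding genes whose annotated start lies within 10 Mb of the start of Irx4 (GENCODE M21, GRCm38), without the Irx genes, and that reached 0.5 CPM (counts after scaling libraries to the same total) in 3 libraries. Of 122 such genes, 114 were listed in the deposited tables, 24 of these stayed below that level, and 90 were members, out of 15347 genes tested in the whole series. The start used for distances is the lowest coordinate of the gene record, whatever the strand. For a gene on the minus strand this is where transcription ends, as for Adgrv1, Zfp729a, Adcy2 and Nkd2 below. There were 51 members at lower coordinates than Irx4 and 39 at higher ones. The filter did not rest on one genotype: 0 members passed only through the 9 libraries with homozygous mutant Irx4 and 0 only through the 9 others. The members nearest to the filter were Slc6a18 and Gm10775, whose third-highest library held 0.817 and 1.05 CPM, and just outside it lay Gm28044 at 0.483 CPM and 2410141K09Rik at 0.443 CPM.

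Polyadenylated RNA was sequenced in 18 libraries of 5 genotypes, to ask what Irx3 and Irx4 do in the ventricle wall. There were 6 libraries labelled as knockout of both genes (DKO 2, 3, 4, 5, 7 and 10), 3 labelled Irx4KO, 3 labelled Irx3KO, 3 heterozygous for both genes (dHet) and 3 WT. The labels give neither the strain, nor how the alleles were made, nor whether replicates came from different embryos; a p-value here covers the scatter of the libraries at hand, which could be technical. Irx3 lies on chromosome 8. The 9 libraries labelled DKO or Irx4KO carry homozygous mutant Irx4, dHet carries 1 mutant copy, and Irx3KO and WT are labelled with none.

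Irx4 encodes an Iroquois homeodomain transcription factor found in the ventricular myocardium, and it lies beside Irx2 and Irx1 in a conserved cluster. Genes close to a mutated locus are inherited together with it, so a comparison by Irx4 genotype is also a comparison by the copies of the neighbouring genes that each embryo holds. An effect of the mutation and an effect of the linked DNA cannot be told apart in this design.

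The libraries fell into a pair of sets that the labels do not name. Each library's departure from the all-library mean was ranked over 13645 genes against the length of the longest transcript, and Spearman's rho ran from -0.511 to -0.292 in DKO 5, 7 and 10 and WT (the first set), and from 0.058 to 0.482 in the other 12 libraries (the second set). Homozygous mutants were therefore compared inside each set: DKO 5, 7 and 10 with WT, where Irx3 differs as well, and Irx4KO and DKO 2, 3 and 4 with Irx3KO and dHet, where each side holds 3 libraries with homozygous mutant Irx3. The other 3 libraries of each side differ in Irx3 too, since Irx4KO is not labelled mutant for it and dHet carries 1 mutant copy: Irx3 had 25.0 ± 2.36 CPM in Irx4KO and 13.2 ± 0.273 CPM in dHet (SD, n = 3 each), and its second-set log2 difference was 0.65 ± 0.09 (adjusted p = 0.0016). Totals ran from 26721576 to 45946741 estimated counts per library. The sum of 4 Y-linked genes was 0.881 CPM in WT 3, 1.1 in DKO 4 and 1.42 in dHet 2. It was 96.6 to 300 CPM in the other libraries, so the groups differ in sex by this measure. The log of that sum is the sex covariate used below. Among 6 ventricular myocyte markers none was at 0. They summed to 21400 to 23700 CPM in DKO 5, 7 and 10, against 19100 to 20200 CPM in WT, with no overlap, and to 16800 to 19800 CPM in the homozygous libraries of the second set, against 16700 to 20000 CPM in Irx3KO and dHet. In the first set, 6 genes listed as atrial (Myl7, Nppa, Sln, Myl4, Nr2f2 and Stard10) summed to 3820 to 4300 CPM in DKO, against 2500 to 3310 CPM in WT. Whether that sum comes from atrial cells was not tested. There, 6 leukocyte markers summed to 55.8 to 86.7 CPM in DKO, against 76.3 to 142 CPM in WT. In the second set, the atrial sum was 2450 to 3190 CPM in homozygous libraries, against 1980 to 2660 CPM in Irx3KO and dHet, and the leukocyte sum 44.0 to 57.2 CPM, against 48.6 to 67.9 CPM. In the first set, 6 endothelial markers summed to 951 to 1020 CPM in DKO (918 to 1010 CPM in WT). For 7 erythroid genes it was 2620 to 4540 CPM in DKO (3460 to 6970 CPM in WT). Second-set endothelial sums were 954 to 1040 CPM in homozygous libraries (962 to 1130 CPM in the others). Erythroid sums there were 3150 to 8310 CPM (4090 to 7160 CPM in the others). The part of these marker sums in the results below was not tested. In bulk RNA, fewer cells of a type cannot be told apart from less RNA per cell.

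Irx4 itself, the gene between the members, gave more counts in the libraries labelled mutant. It had 279, 215 and 259 CPM in DKO 5, 7 and 10, against 81.9, 78.4 and 125 CPM in WT. Across the second set it averaged 226 ± 12.4 CPM in Irx4KO and 230 ± 6.90 CPM in DKO 2, 3 and 4, against 145 ± 11.4 CPM in Irx3KO and 186 ± 7.89 CPM in dHet (SD, n = 3 each). The log2 difference was 1.40 ± 0.14 in the first set (SE, adjusted p = 0.00012) and 0.47 ± 0.10 in the second (adjusted p = 0.028). Counts of Irx4 therefore do not show a loss of its transcript, and the libraries are called by their labels throughout. Irx2, its neighbour in the cluster, was lower in the homozygous libraries of the second set, by a log2 difference of -0.53 ± 0.11 (adjusted p = 0.029), and stood at 0.12 ± 0.16 in the first set (adjusted p = 0.78).

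A total of 4 members passed the threshold in at least 1 of the comparisons: Adgrv1, Zfp729a, Adcy2 and Nkd2. In DKO 5, 7 and 10 against WT, 1 member was higher (Nkd2) and 1 lower (Adgrv1), which is 2.22% of the 90 members, against 1.58% of all genes tested (0.684% higher and 0.899% lower). In Irx4KO and DKO 2, 3 and 4 against Irx3KO and dHet, 1 member was higher (Adcy2) and 2 were lower (Adgrv1 and Zfp729a), which is 3.33% of members, against 0.893% of all genes (0.43% higher and 0.463% lower). All adjusted p-values come from edgeR's quasi-likelihood F test over all genes with Benjamini-Hochberg adjustment and a threshold of 0.05. At an unadjusted p under 0.05 the members' share was 13.3% in the first set and 14.4% in the second, against 14.4% and 10.8% of all genes.

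**Figure D1:**
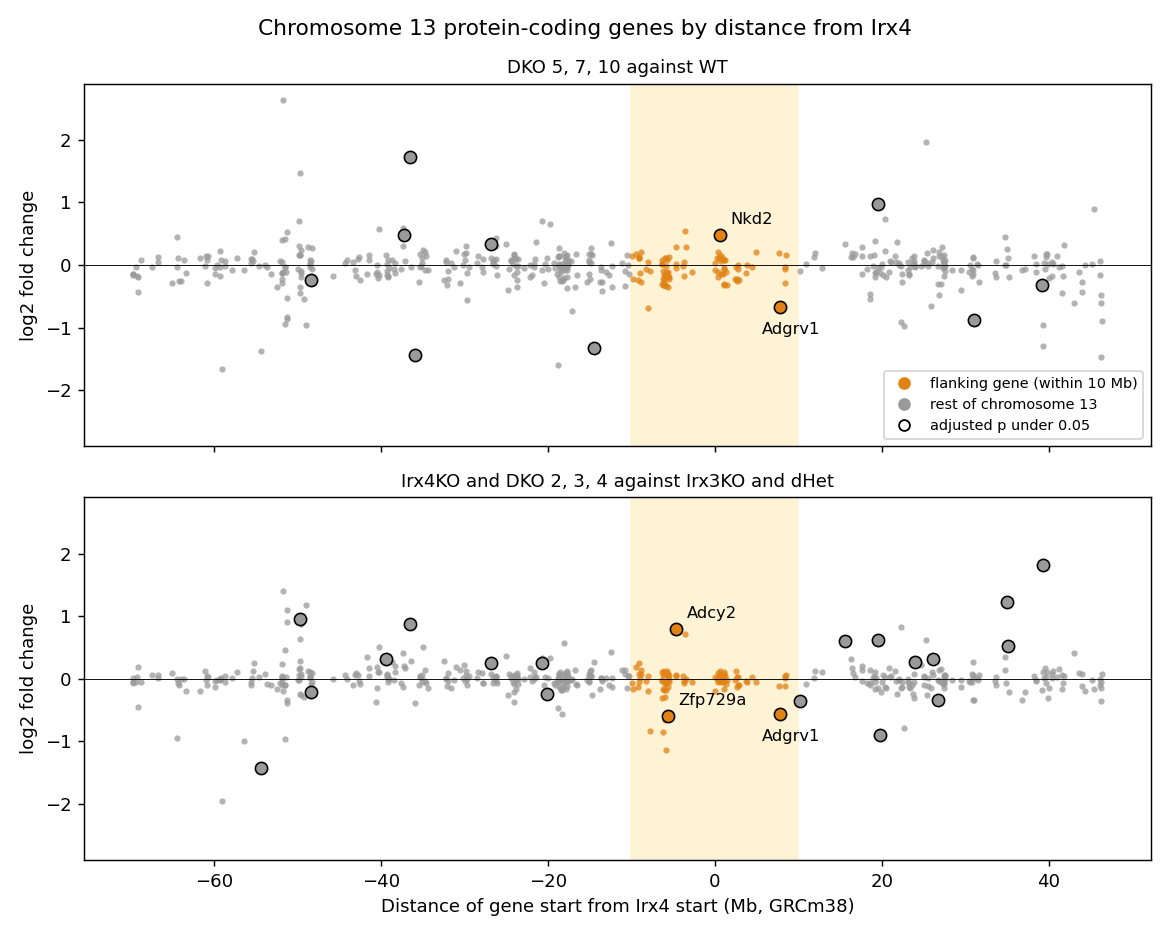
Log2 fold change (y axis) of each protein-coding gene of chromosome 13 by the distance of its start from that of Irx4 in Mb (x axis), with DKO 5, 7 and 10 against WT above and Irx4KO and DKO 2, 3 and 4 against Irx3KO and dHet below; the shaded band holds the 90 members, and ringed points have an adjusted p under 0.05. The 4 named members are the ones ringed inside the band, most members lie near 0, and ringed genes also occur over the rest of the chromosome.

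The upstream sequences of Adgrv1 and Zfp729a are shown because Adgrv1 was the 1 member past the threshold in both comparisons and Zfp729a passed it under every alternative tried in the second set. Both are RefSeq promoter windows of 300 bases on the minus strand of chromosome 13 (GRCm38.p6). They run from 250 bases before to 50 bases from the annotated transcription start, with the first 10 bases from it in capitals. On this strand the transcription start is the higher end of the gene, not the coordinate used for distances. The Adgrv1 window is chr13:81633095-81633394 and holds 63.3% G and C, and the Zfp729a window is chr13:67637732-67638031 and holds 47.7%.
Adgrv1: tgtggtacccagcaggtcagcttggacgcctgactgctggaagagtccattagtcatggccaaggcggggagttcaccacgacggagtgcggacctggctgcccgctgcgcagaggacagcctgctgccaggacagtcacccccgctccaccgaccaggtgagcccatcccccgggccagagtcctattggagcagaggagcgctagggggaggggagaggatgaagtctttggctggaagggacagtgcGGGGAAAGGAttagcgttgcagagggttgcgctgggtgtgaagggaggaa
Zfp729a: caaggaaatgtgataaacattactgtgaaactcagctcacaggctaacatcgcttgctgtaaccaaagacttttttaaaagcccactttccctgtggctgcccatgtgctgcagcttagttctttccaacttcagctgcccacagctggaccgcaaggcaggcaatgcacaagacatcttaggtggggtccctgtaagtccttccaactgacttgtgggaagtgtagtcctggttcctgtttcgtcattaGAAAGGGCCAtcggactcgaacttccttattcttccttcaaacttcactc
The letters ACANNTGT, a palindrome that reads alike on both strands and that Iroquois proteins are known to bind, were searched in these windows and in those of Adcy2 and Nkd2, and had 0 matches in each. The same letters occur in 2423 of 32851 RefSeq promoter windows (7.4%) and in 2 of 91 windows (2.2%) of the 75 members matched by symbol.

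Adgrv1, the gene of a very large adhesion G protein-coupled receptor that links the stereocilia of inner ear hair cells and is mutated in a form of Usher syndrome, starts 7.83 Mb above Irx4. It had 3.08, 2.82 and 3.24 CPM in DKO 5, 7 and 10, against 5.31, 5.5 and 3.81 CPM in WT. All 3 DKO libraries were below all 3 WT libraries. The log2 fold change was -0.68 ± 0.16 (SE, adjusted p = 0.044, 95% interval -1.02 to -0.33).

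Among the other 12 libraries, Adgrv1 had 3.87, 3.53 and 3.88 CPM in Irx4KO and 3.52, 3.70 and 4.22 CPM in DKO 2, 3 and 4, against 6.26, 7.05 and 6.74 CPM in Irx3KO and 4.47, 3.93 and 5.75 CPM in dHet. The homozygous libraries lay below every Irx3KO library and overlapped with dHet through dHet 3. The log2 fold change was -0.57 ± 0.11 (adjusted p = 0.025). Between single groups, it was -0.81 ± 0.16 in DKO 2, 3 and 4 against Irx3KO (adjusted p = 0.034), both with homozygous mutant Irx3. That call was lost with the sex covariate. In Irx4KO against dHet, which differ in Irx3 as well as in Irx4, the log2 fold change was -0.32 ± 0.16 (adjusted p = 0.93). Group means ran from 3.76 CPM in Irx4KO and 3.81 CPM in DKO 2, 3 and 4, which did not differ beyond their spread, through 4.72 ± 0.939 CPM in dHet to 6.68 ± 0.398 CPM in Irx3KO (SD, n = 3 each), while dHet against Irx3KO was -0.51 ± 0.16 with an adjusted p rounded to 1. Both Irx3 and Irx4 differ by label between dHet and Irx3KO.

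Adgrv1 had 13 listed transcripts, and a large part of its counts lay on a pair of them. Adgrv1-201 held 19.2% of the gene's estimated counts in DKO 5, 7 and 10, against 35.3% in WT, and 36.0% in the homozygous libraries of the second set, against 48.1% in Irx3KO and dHet. Adgrv1-210 held 46.6% in DKO 5, 7 and 10, against 30.8% in WT. In the second set it held 38.4% in the homozygous libraries, against 30.4% in Irx3KO and dHet. As CPM by library total, first-set levels of Adgrv1-210 overlapped: 1.49, 1.18 and 1.55 in DKO, against 1.25, 1.83 and 1.51 in WT. Those of Adgrv1-201 were 0.212, 0.657 and 0.876 in DKO, against 2.15, 1.68 and 1.39 in WT. In the second set Adgrv1-201 had 1.02 to 1.70 CPM in homozygous libraries, against 1.14 to 4.06 in the others. For Adgrv1-210 these were 1.24 to 1.62 and 1.33 to 2.10 CPM. The size of the difference moved with the treatment of transcript length: with counts rebuilt from TPM, values scaled for transcript length, the first-set log2 fold change was -0.17 (adjusted p = 0.83) and the second-set one -0.53 (adjusted p = 0.20). With the length trend of each library removed they were -0.58 (adjusted p = 0.11) and -0.47 (adjusted p = 0.098). The gene spans 538.1 kb and overlaps 3 other annotated genes, 2 of them on the other strand and none of the 3 tested. The first-set call was kept on leaving out dHet 3, dHet 4, DKO 4, DKO 10 or WT 3 and lost on leaving out any 1 of the other 13 libraries (adjusted p up to 0.18, without WT 1). The second-set call was lost without dHet 4, DKO 2, DKO 3, Irx3KO 2, Irx3KO 4 or any 1 Irx4KO library (adjusted p up to 0.071, without Irx3KO 2).

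Zfp729a, a gene of the KRAB zinc finger cluster, starts 5.65 Mb below Irx4. Proteins of this family bind DNA through arrays of zinc fingers, and many of them silence transposable elements. The second set gave 14.3, 13.4 and 16.6 CPM in Irx4KO and 12.2, 14.1 and 14.3 CPM in DKO 2, 3 and 4, against 20.9, 23.6 and 20.2 CPM in Irx3KO and 24.1, 21.0 and 17.3 CPM in dHet. Every homozygous library was below every other library of that set. The log2 fold change was -0.59 ± 0.10 (adjusted p = 0.007, 95% interval -0.79 to -0.38), with -0.67 ± 0.14 in DKO 2, 3 and 4 against Irx3KO (adjusted p = 0.042) and -0.50 ± 0.14 in Irx4KO against dHet (adjusted p = 0.58). With the sex covariate the second-set call was kept, and that in DKO 2, 3 and 4 against Irx3KO was lost.

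Within the first set, Zfp729a had 8.88, 10 and 12.9 CPM in DKO 5, 7 and 10, against 12.8, 11.3 and 11.5 CPM in WT. These groups overlapped, and the log2 fold change was -0.17 ± 0.14 (adjusted p = 0.64). The first-set minus second-set difference of the effects was 0.42 ± 0.17, with an adjusted p of 0.58, so the effects were not shown to differ. The gene has 1 listed transcript, and 22.7% of its 31-base words also occur in transcripts of other genes, 15.4% in the neighbour Zfp738. Zfp738 itself stood at -0.36 ± 0.17 in the first set (adjusted p = 0.34) and -0.13 ± 0.12 in the second (adjusted p = 0.79).

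Adcy2, an adenylyl cyclase that makes cyclic AMP downstream of G protein-coupled receptors, starts 4.64 Mb below Irx4. The second set gave 2.41, 2.21 and 1.90 CPM in Irx4KO and 2.08, 2.46 and 2.26 CPM in DKO 2, 3 and 4, against 1.53, 1.18 and 1.39 CPM in Irx3KO and 1.65, 0.682 and 1.21 CPM in dHet. Every homozygous library was above every other library of the set. The log2 fold change was 0.80 ± 0.18 (adjusted p = 0.037, 95% interval 0.43 to 1.17), and the separate contrasts were 0.73 ± 0.25 in DKO 2, 3 and 4 against Irx3KO (adjusted p = 0.33) and 0.88 ± 0.25 in Irx4KO against dHet (adjusted p = 0.58).

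Within the first set, Adcy2 had 1.66, 2.34 and 1.75 CPM in DKO 5, 7 and 10, against 1.55, 1.6 and 1.52 CPM in WT. The DKO libraries were all above WT, DKO 5 only narrowly, and the log2 fold change was 0.30 ± 0.24 (adjusted p = 0.63). Adcy2 is a low gene at a mean of 0.583 TPM over the 18 libraries. Its second-set call was kept without dHet 2, DKO 5, DKO 7, DKO 10 or WT 2 and lost on leaving out any 1 of the other 13 libraries, with adjusted p up to 0.12 (without Irx3KO 2), and the log2 fold change stayed between 0.66 and 0.98.

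Nkd2, which binds Dishevelled and restrains Wnt signalling, starts 0.56 Mb above Irx4 and was the nearest of the 4. It had 13.6, 11.5 and 14 CPM in DKO 5, 7 and 10, against 10.1, 8.88 and 9.0 CPM in WT. The DKO libraries were all above WT, with a log2 fold change of 0.48 ± 0.12 (adjusted p = 0.043, 95% interval 0.24 to 0.73). Across the second set it averaged 11.8 ± 1.32 CPM in the homozygous libraries and 10.8 ± 0.967 CPM in Irx3KO and dHet (SD, n = 6 each). The groups overlapped there, with a log2 fold change of 0.13 ± 0.08 (adjusted p = 0.65), and the difference between the effects was 0.36 ± 0.14 (adjusted p = 0.55). Its first-set call was kept without dHet 2, dHet 3, DKO 2, DKO 3, DKO 4 or DKO 7 and lost on leaving out any 1 of the other 12 libraries, with adjusted p up to 0.15 (without WT 3). With the sex covariate the first-set log2 fold change was 0.418 and the call was lost (adjusted p = 0.092).

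**Figure D2:**
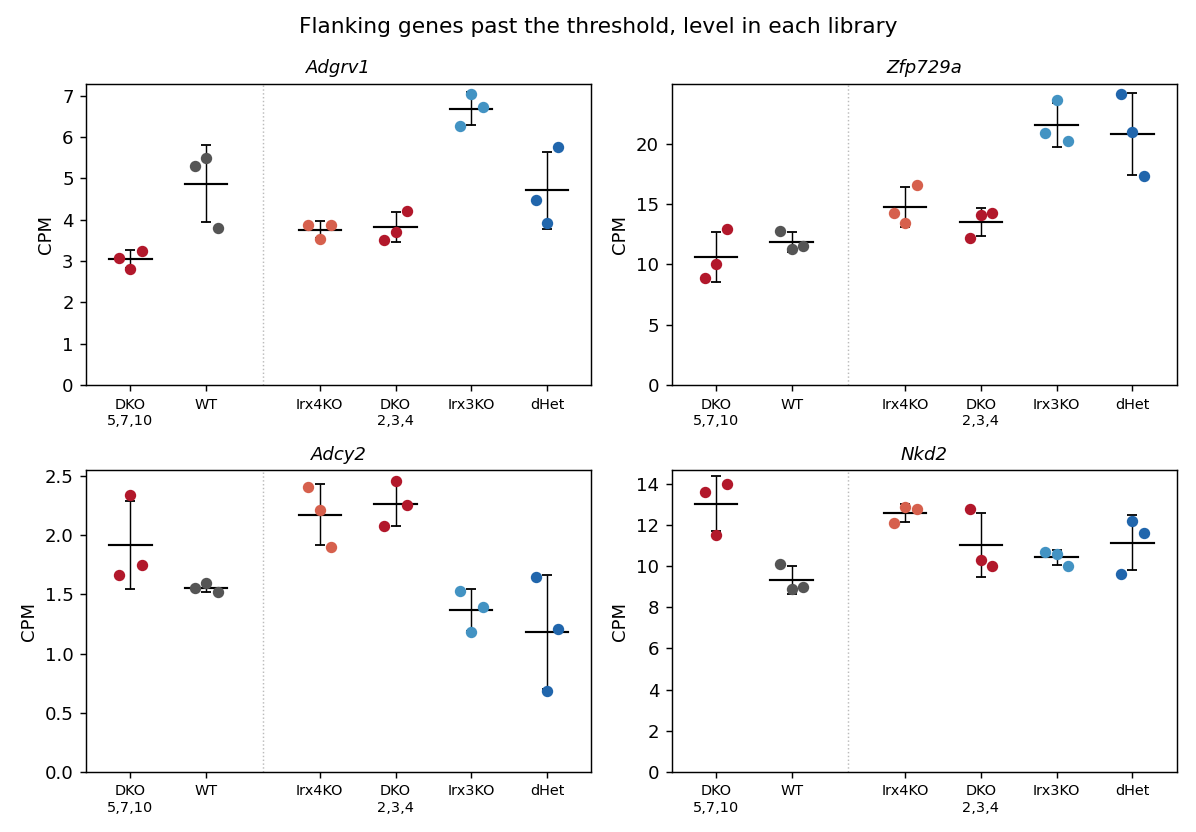
Level in CPM (y axis) of Adgrv1, Zfp729a, Adcy2 and Nkd2 in each of the 18 libraries (points) by group (x axis), with the group mean as a bar and the SD as a whisker (n = 3 each); the dotted line parts the first set (left) from the second. In the second set Zfp729a is lower and Adcy2 higher in every Irx4KO and DKO library than in any Irx3KO or dHet library, while for Nkd2 the DKO libraries lie above WT in the first set and the groups overlap in the second.

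The members closest to Irx4 did not pass the threshold in either set. On the higher side, Ndufs6, a subunit of mitochondrial complex I whose start is 0.06 Mb away, had 85.3, 89.3 and 81.0 CPM in DKO 5, 7 and 10, against 85.2, 84.9 and 79.8 CPM in WT. Its groups overlapped, at a log2 fold change of 0.03 ± 0.08 in the first set (95% interval -0.15 to 0.21) and 0.03 ± 0.06 in the second (95% interval -0.09 to 0.16). Mrpl36, a protein of the large mitochondrial ribosomal subunit that overlaps Ndufs6 on the other strand, stood at -0.07 ± 0.09 in the first set and -0.19 ± 0.06 in the second (adjusted p = 0.77 and 0.23). Lpcat1, an acyltransferase that remodels phosphatidylcholine, stood at 0.12 ± 0.06 and -0.01 ± 0.04 (adjusted p = 0.37 and 0.98).

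Clptm1l, a membrane protein gene 0.34 Mb from Irx4, had 119, 131 and 112 CPM in DKO 5, 7 and 10, against 103, 108 and 103 CPM in WT. The DKO libraries were all above WT, at a log2 fold change of 0.20 ± 0.06 that missed the threshold (adjusted p = 0.10) and passed it with DESeq2 (adjusted p = 0.025). Its second-set value was 0.01 ± 0.04, with a 95% interval of -0.08 to 0.10. On the lower side the nearest member, Ice1, a subunit of the little elongation complex for small nuclear RNA genes, lies 2.71 Mb away, beyond Irx2 and Irx1. It had 82.6, 91.4 and 106 CPM in DKO 5, 7 and 10, against 103, 97.8 and 102 CPM in WT, and its log2 fold change was -0.12 ± 0.07 in the first set (adjusted p = 0.46) and -0.05 ± 0.05 in the second (adjusted p = 0.83).

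Med10, a Mediator subunit 3.46 Mb below Irx4, had 33.7, 28.4 and 29.3 CPM in DKO 5, 7 and 10, against 23.1, 26.2 and 25.5 CPM in WT. These groups did not overlap, but the log2 fold change of 0.29 ± 0.10 missed the threshold (adjusted p = 0.17), and the second set gave 0.00 ± 0.07. Ube2ql1, a ubiquitin-conjugating enzyme, averaged 1.46 ± 0.540 CPM in DKO 5, 7 and 10 and 1.00 ± 0.239 CPM in WT (SD, n = 3 each), with a log2 fold change of 0.54 ± 0.30 (adjusted p = 0.44). Ube2ql1 averaged, across the second set, 1.33 ± 0.293 CPM in the homozygous libraries and 0.811 ± 0.122 CPM in Irx3KO and dHet (n = 6 each), at 0.72 ± 0.22 (adjusted p = 0.18). Srd5a1, a steroid 5-alpha-reductase, stood at -0.17 ± 0.12 and -0.03 ± 0.09 (adjusted p = 0.56 and 0.95).

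Calls were spread over the window. Of the 22 members within 2 Mb, 1 was called in the first set and 0 in the second, of the 20 between 2 and 5 Mb, 0 and 1, and of the 48 between 5 and 10 Mb, 1 and 2. Among the 425 other protein-coding genes of chromosome 13 tested, 9 (2.12%) were called in the first set and 18 (4.24%) in the second. Protein-coding genes on the other chromosomes gave 1.62% and 0.762%, so in the second set the share was above that of the other chromosomes over chromosome 13 as a whole (4.08% of 515), in the far genes as in the members (3.33%). No test of that share was made. Those far calls included Mef2c, a cardiac transcription factor gene 10.2 Mb from Irx4 and so just outside the window, at -0.35 in the second set (adjusted p = 0.019), and Nrn1 and Thbs4, 36.5 and 19.5 Mb away on opposite sides. As a matched flank, the 137 genes within 10 Mb of Irx3 on chromosome 8 gave 3.65% in the first set and 2.19% in the second, and Irx3 itself differs in both sets.

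Over the members as a whole, differences were small in both sets. The median log2 fold change was -0.06 in the first set and -0.02 in the second, against 0.005 and 0.002 for all genes, and the median size was 0.14 and 0.07, against 0.12 and 0.07. The members ranged from -0.69 to 0.54 in the first set and from -1.14 to 0.80 in the second. The 95% interval lay within 2-fold in either direction for 84 and 85 of the 90 members, and within 1.5-fold for 61 and 76. The sets share no libraries, only the fit's spread and normalization, and 57 of 90 members (63.3%) had the same sign in both, against 60.0% of all genes. A total of 1 member (Adgrv1) was called in both sets, while 58 genes in all were.

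The shares of members whose groups do not overlap were near those of all genes. In the first set 11 of 90 members (12.2%) had DKO 5, 7 and 10 all on one side of WT, against 15.2% of all genes: Adcy2, Med10, Clptm1l, Slc12a7, Nkd2 and Exoc3 were higher in DKO, and Zfp369, Tert, Ahrr, Spata9 and Adgrv1 lower. In the second set 2 of 90 (2.22%) did so, Adcy2 and Zfp729a, against 1.98% of all genes. Zfp369, a zinc finger gene 7.98 Mb below Irx4, had the lowest first-set value of all members, -0.69 ± 0.19 (adjusted p = 0.087), and stood at -0.20 ± 0.13 in the second set (adjusted p = 0.67).

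Between single groups of the second set, DKO 2, 3 and 4 against Irx3KO, both with homozygous mutant Irx3, gave 2 members called, both lower (Adgrv1 and Zfp729a), which is 2.22%, against 0.45% of all genes (0.261% lower), and 9 of the 90 had an unadjusted p under 0.05, against 7.96% of all genes. Irx4KO against dHet, where dHet carries 1 mutant copy of each gene, gave 0 members with edgeR, against 0.013% of all genes, 6 (6.67%) at an unadjusted p under 0.05, against 5.46% of all genes, and 0 with DESeq2 and with limma-voom. DKO 2, 3 and 4 against Irx4KO, which differ in Irx3 only, gave 0 members against 0.0261% of all genes, with 6 at an unadjusted p under 0.05 (6.67%, against 5.9%). For dHet against Irx3KO there were 0 members against 0.00652% of all genes, with 2 at an unadjusted p under 0.05 (2.22%, against 4.22%). DESeq2 and limma-voom called 0 members in both. The test of the difference between the sets' effects gave 0 members, against 0.0521% of all genes (0.0195% higher and 0.0326% lower), 9 at an unadjusted p under 0.05 (against 7.64% of all genes), and 0 with DESeq2 or limma-voom.

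**Figure D3:**
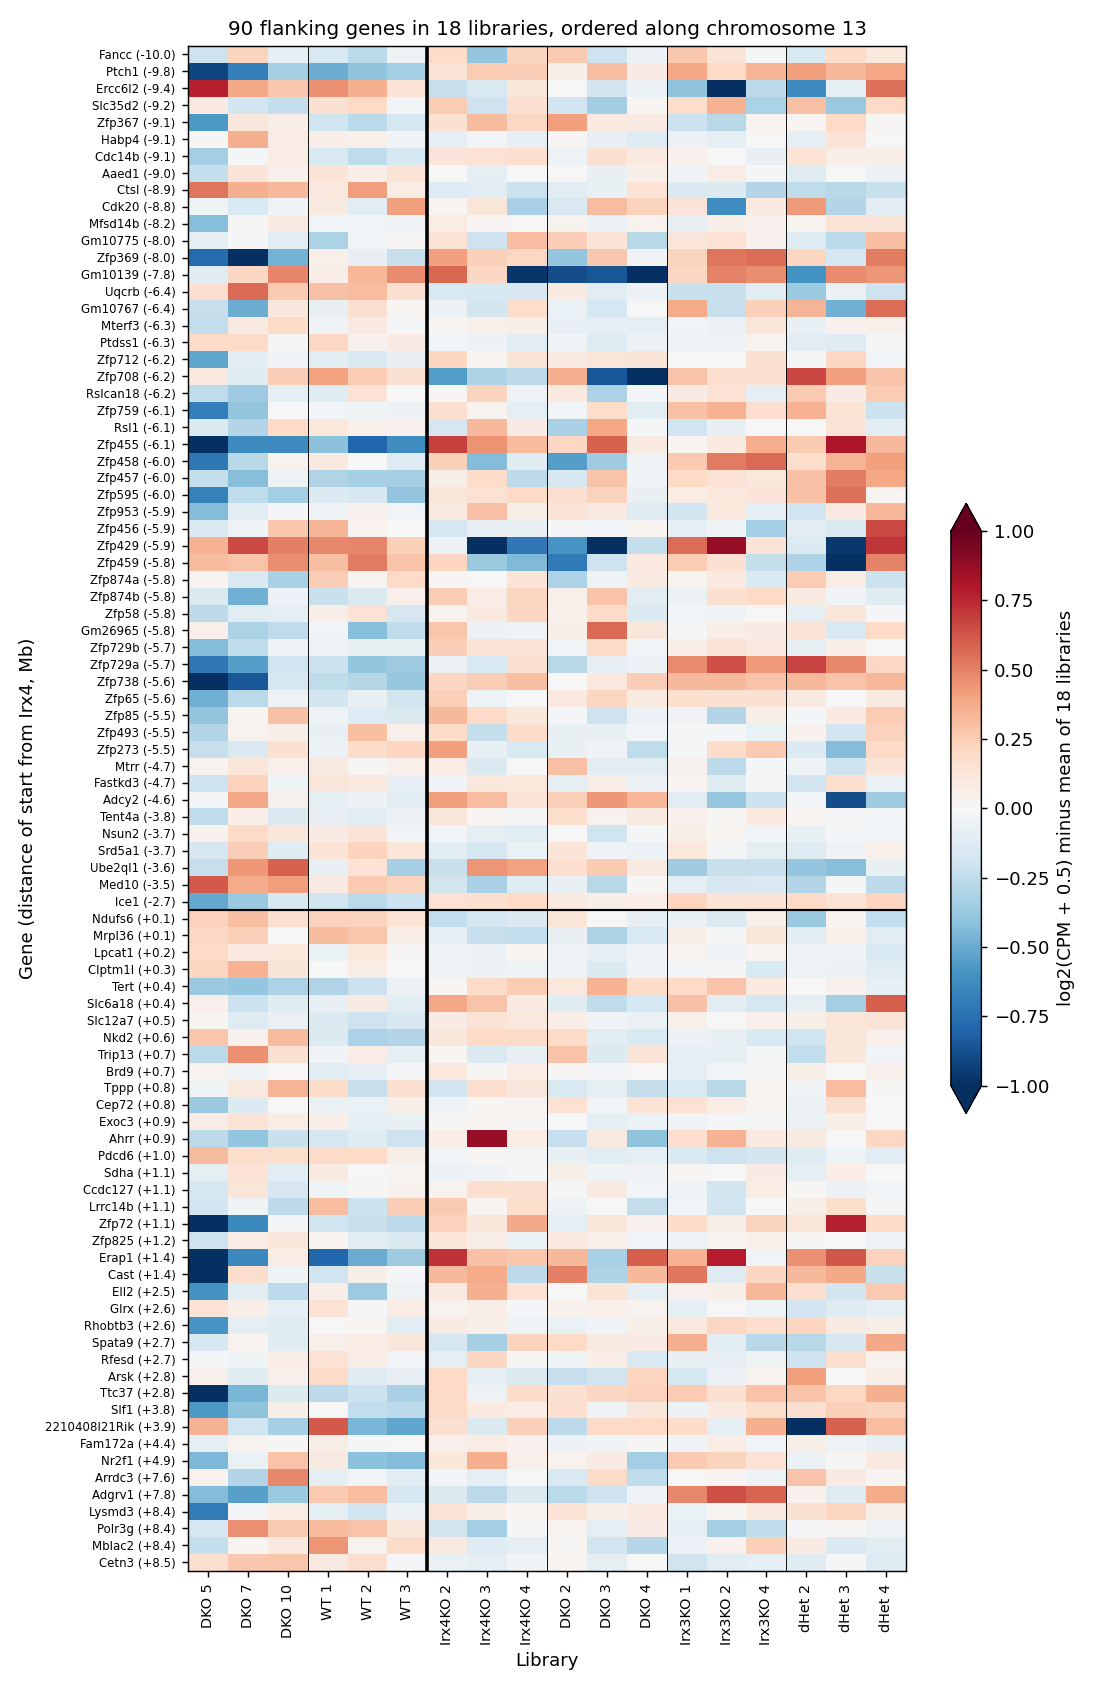
Level of the 90 members (rows, ordered along chromosome 13 with the distance of the start from Irx4 in Mb) in the 18 libraries (columns) as log2(CPM + 0.5) minus the member's mean over all libraries; vertical lines part the groups, the thick one the first set (left) from the second, and the horizontal line marks the place of Irx4. The columns of DKO 5 and DKO 7 are darker blue across the zinc finger cluster than DKO 10 and WT, and single rows such as Gm10139, Zfp429 and Zfp708 change sharply from library to library.

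The zinc finger genes are the most numerous group, with 27 members, 23 of them between 5 and 6.5 Mb below Irx4. Here and elsewhere in the genome they were taken by symbol alone, as those starting with Zfp, Zkscan or Rsl. Zinc finger genes under other prefixes are therefore left out. In the first set 0 of them passed the threshold with edgeR (2 at an unadjusted p under 0.05; DESeq2 called 1, Zfp369, and limma-voom 0). In the second set 1 passed it, Zfp729a, lower (6 at an unadjusted p under 0.05; DESeq2 also called Zfp429, Zfp458 and Zfp708, all lower, and limma-voom also called Zfp458 and Zfp708, lower, and Zfp367, higher). Zfp458 stood there at -0.65 ± 0.16 (adjusted p = 0.071). As to sign, 22 of the 27 zinc finger members were below 0 in the first set, with a median log2 fold change of -0.18, against -0.06 over the 349 zinc finger genes tested elsewhere, of which 236 were below 0 and 3 were called lower. Of all 90 members, 57 were below 0. The libraries did not share this equally: relative to the mean of all 18 libraries, the median of the zinc finger members was -0.39 in DKO 5, -0.25 in DKO 7 and -0.02 in DKO 10, against -0.05, -0.07 and -0.07 in WT 1, 2 and 3. DKO 5 also had the most negative rho with transcript length, -0.511, against -0.389 in DKO 7, -0.292 in DKO 10 and -0.436 to -0.411 in WT. The part of that trend in the zinc finger values was not tested gene by gene. The second-set median of the zinc finger members was -0.05, against -0.02 elsewhere, where 1 of the 349 was called, higher.

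These genes resemble each other in sequence, so the counting could split reads among them. A median of 19.0% of a zinc finger member's 31-base words also occur in transcripts of another gene (0.0% to 48.0%, over 10% in 18 of 27), against a median of 0.1% for the other 63 members (0.0% to 99.0%, over 10% in 8). Those 8 include Lrrc14b, with 99.0% shared with Ccdc127, and the nearest member Ndufs6, with 23.0% shared with Ndufs6b.

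Several members varied widely between libraries of the same group, and the 8 with the widest spread inside groups were picked out after their values were seen. Zfp429, in the zinc finger cluster, had 1.77, 0.589 and 0.934 CPM in Irx4KO and 1.07, 0.54 and 1.5 CPM in DKO 2, 3 and 4, against 2.97, 3.81 and 2.08 CPM in Irx3KO and 1.65, 0.709 and 3.38 CPM in dHet. A low level was thus found in the homozygous libraries and also in dHet 3. Its log2 fold change of -1.14 ± 0.34 was the lowest of all members but missed the threshold (adjusted p = 0.16), and was -1.34 without dHet 3 (adjusted p = 0.052). That library was singled out after its value was seen, and 0 of 18 fits with a library left out called Zfp429 (adjusted p up to 0.34). In the first set Zfp429 had 2.51 to 3.23 CPM in DKO, against 2.28 to 2.81 CPM in WT. Of its 31-base words, 41.8% occur elsewhere, 34.3% in Rsl1.

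Zfp708, also of the cluster, had 2.33, 2.86 and 2.98 CPM in Irx4KO and 4.86, 1.81 and 1.08 CPM in DKO 2, 3 and 4, against 4.58, 4.18 and 4.13 CPM in Irx3KO and 6.13, 5.04 and 4.59 CPM in dHet. DKO 2 was the 1 homozygous library at the level of the others. The log2 fold change was -0.84 ± 0.24 (adjusted p = 0.15), and without DKO 2 it was -1.26 (adjusted p = 0.00071). DKO 2 was singled out here after its value was seen, so that p-value is not a test of the pattern. Of the 18 fits with a library left out, this was the 1 that called Zfp708 (adjusted p up to 0.31 in the others). Zfp459 stood at -0.17 ± 0.28 in the second set (adjusted p = 0.91) and was lowest in dHet 3, at 0.6 CPM.

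Gm10139, a gene model of 0.2 kb that lies 7.75 Mb below Irx4 and shares 69.6% of its 31-base words with other genes, took separate low and high levels. It had 5.22, 3.92 and 1.46 CPM in Irx4KO and 1.58, 1.62 and 1.42 CPM in DKO 2, 3 and 4, against 3.93, 4.91 and 4.79 CPM in Irx3KO and 2.03, 4.83 and 4.71 CPM in dHet. The low libraries were all of DKO 2, 3 and 4, with Irx4KO 4 and dHet 2. The second-set log2 fold change was -0.84 ± 0.26 (adjusted p = 0.19), and -0.99 without dHet 2 (adjusted p = 0.066). That library was singled out after its value was seen, and 0 of 18 fits with a library left out called Gm10139 (adjusted p up to 0.34). All 6 libraries of the first set lay between 3.03 and 4.87 CPM.

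Cast and Erap1 overlap on opposite strands 1.43 and 1.38 Mb above Irx4, and the strand setting of the authors' counting is not given in the sources used here. Cast encodes calpastatin, the inhibitor of calpain proteases, and had 4.83, 24.0 and 20.7 CPM in DKO 5, 7 and 10, against 18.4, 22.1 and 20.9 CPM in WT. Erap1, which trims peptides for display on class I molecules, had 1.45, 4.81 and 8.27 CPM in the same DKO libraries, against 4.33, 5.39 and 6.0 CPM in WT. DKO 5 was the lowest of the 18 libraries for both genes. Their first-set log2 fold changes were -0.31 ± 0.43 and -0.11 ± 0.44 (adjusted p = 0.80 and 0.95), and 0.13 and 0.33 without DKO 5 (adjusted p = 0.84 and 0.60). Their second-set values were -0.02 ± 0.30 and -0.08 ± 0.30.

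Ercc6l2, a helicase-like gene of DNA repair 9.45 Mb below Irx4, stood at 0.18 ± 0.25 in the first set and 0.19 ± 0.18 in the second (adjusted p = 0.80 and 0.82), and ranged from 3.66 CPM in Irx3KO 2 to 14 CPM in DKO 5. The gene model 2210408I21Rik stood at -0.01 ± 0.43 and -0.05 ± 0.31 (adjusted p rounded to 1 in the first set and 0.98 in the second), with 1.09 CPM in dHet 2 and 5.02 CPM in WT 1 as its extremes. Neither gene passed the threshold, and the second-set 95% intervals were -0.20 to 0.57 for Ercc6l2 and -0.70 to 0.60 for 2210408I21Rik. Ercc6l2 stood at 0.48 ± 0.26 in DKO 2, 3 and 4 against Irx3KO and at -0.10 ± 0.26 in Irx4KO against dHet.

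**Figure D4:**
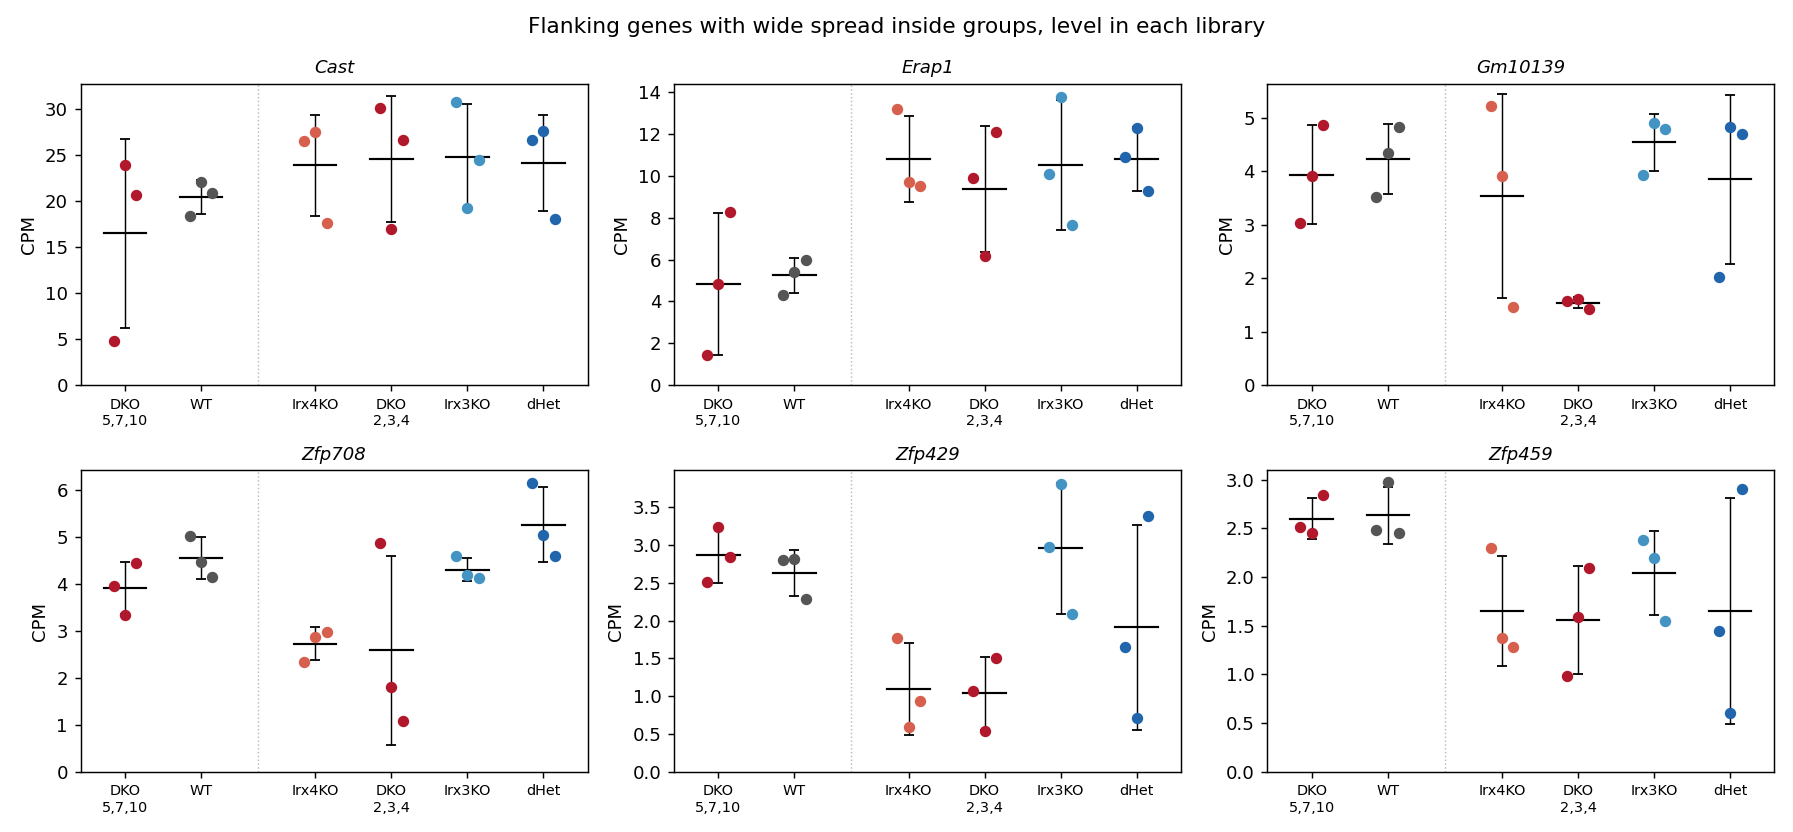
Level in CPM (y axis) of Cast, Erap1, Gm10139, Zfp708, Zfp429 and Zfp459 in each of the 18 libraries (points) by group (x axis), with the group mean as a bar and the SD as a whisker (n = 3 each); the dotted line parts the first set (left) from the second. Cast and Erap1 are lowest in DKO 5, and Gm10139 is at 1.42 to 1.62 CPM in DKO 2, 3 and 4, against 3.93 to 4.91 CPM in Irx3KO.

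The other groups of members, drawn up by function, held few calls. Beside their counts, all genes gave 1.58% called in the first set and 0.893% in the second. At an unadjusted p under 0.05 the shares of all genes were 14.4% and 10.8%. Among the 5 of 8 listed mitochondrial genes that were members, 0 were called in either set (0 and 1 at an unadjusted p under 0.05): Sdha, the catalytic subunit of complex II, at a mean of 351 TPM one of the members with most transcript per length, stood at -0.05 ± 0.07 and -0.03 ± 0.05 (adjusted p = 0.77 and 0.88). The list headed Hedgehog and growth regulators was a loose one of 5 members (Fancc, Ptch1, Ercc6l2, Habp4 and Nkd2). In it Nkd2 was higher in the first set, and Ptch1, the Hedgehog receptor, stood at -0.22 ± 0.12 and -0.17 ± 0.08 (adjusted p = 0.41 and 0.49). All 7 telomere, replication and division genes were members and 0 were called (2 and 0 at an unadjusted p under 0.05; DESeq2 called Clptm1l in the first set), with Tert, the catalytic subunit of telomerase 0.37 Mb from Irx4, at -0.20 ± 0.12 and 0.10 ± 0.08 (adjusted p = 0.49 and 0.78).

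Of 7 listed genes for nuclear receptors and transcription, 6 were members and 0 were called (1 and 0 at an unadjusted p under 0.05). Among them Nr2f1, an orphan nuclear receptor, stood at 0.20 ± 0.19 and -0.06 ± 0.13 (adjusted p = 0.69 and 0.94). Of 7 genes listed as transporters and channels, 4 were members (Slc35d2, Slc6a18, Slc12a7 and Tppp, the last not a transporter). They gave 0 calls (1 and 0 at an unadjusted p under 0.05), with Slc12a7, a potassium-chloride cotransporter, at 0.11 ± 0.05 and -0.02 ± 0.04 (adjusted p = 0.31 and 0.92). The 3 peptide-processing members gave 0 calls (1 and 1 at an unadjusted p under 0.05), with the lysosomal protease gene Ctsl at 0.20 ± 0.09 and 0.14 ± 0.06 (adjusted p = 0.31 and 0.42). The list with Lpcat1 and Srd5a1 held Adcy2 as its 1 call, and the 30 members in no list held Adgrv1, lower in both sets.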

How the data were processed

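Members and gene lists were chosen with earlier results of these data known. Per the file headers, the authors deposited 1 kallisto table per library with estimated counts and TPM per transcript; kallisto 0.42.2 and the build mm9 come from the submitters' processing notes. Neither the transcript release nor a strand setting is given in the sources used here. Ventricles were frozen and RNA with an integrity number above 8.5 went into a directional library kit, per the labels' protocols. Of 88943 transcripts, 78030 (87.73%) matched GENCODE M21 (GRCm38) by identifier; the rest held 6.42% to 6.77% of a library's counts. Because the builds differ, distances between gene starts are given and no coordinates of genes; promoter windows are RefSeq's, on GRCm38.p6. Expected counts were summed over each of 28563 genes and rounded. No pair of libraries in a group agreed within sampling noise (smallest chi-square per gene 6.47).

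The main test was edgeR 4.0.16 (R 4.3.3): quasi-likelihood F test (robust), TMM, 6 groups with DKO split by set, all 18 libraries in 1 fit, 0.5 CPM in 3 libraries, Benjamini-Hochberg over 15347 genes. The common dispersion was 0.0202. The SE is the log2 fold change divided by the square root of F, and levels are TMM-scaled CPM. TPM values, deposited by the authors, served for levels per length and an alternative. The naming rule takes all members called in either Irx4 comparison (within limits not reached here) and the 4 nearest to Irx4 on each side; other names were chosen after values were seen. Scripts were tested on simulated data. Alternatives were RLE, DESeq2 1.42.0, limma-voom (limma 3.58.1), other filters, fewer libraries, a sex covariate, TPM-rebuilt counts, a replicate block, 1 term for homozygous Irx4, leave-one-out fits and, added after the data were seen, removal of the length trend.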

Additional observations from a re-analysis of the deposited data

How the results depend on the processing

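The number of members called in DKO 5, 7 and 10 against WT, 2 in the reported fit, was 4 with DESeq2 (Adgrv1, Nkd2, Clptm1l and Zfp369), 0 with limma-voom, 1 with no filter on low counts, 0 with only the libraries of that set, 1 with the sex covariate, 0 with counts rebuilt from TPM and 1 with the length trend of each library removed, an alternative chosen after seeing the data. In Irx4KO and DKO 2, 3 and 4 against Irx3KO and dHet, 3 in the reported fit, it was 7 with DESeq2 (adding Gm10139, Zfp429, Zfp458 and Zfp708), 6 with limma-voom (adding Zfp367, Zfp458 and Zfp708), 1 with counts rebuilt from TPM and 1 with the replicate block. In DKO 2, 3 and 4 against Irx3KO the number of members was 2 in the reported fit (69 of 15347 genes in all). It was 4 with DESeq2, 0 with the sex covariate, 0 with counts rebuilt from TPM and 0 with the replicate block. With the length trend removed it was 1. For this comparison the calls over all genes under these alternatives are not given here. Leaving out each library in turn gave 0 to 6 calls in the first of these, 1 to 4 in the second and 0 to 2 in the third. In the first, the 6 came without DKO 10, and there were 0 without DKO 5, WT 1, WT 2 or any single Irx3KO or Irx4KO library. In the second there was 1 without dHet 4, DKO 3, Irx3KO 2, Irx3KO 4 or any single Irx4KO library, and in the third 0 without DKO 3, DKO 4, Irx4KO 2 or any single Irx3KO library. The cause was not tested. The other 4 comparisons stayed at 0 members under every alternative and every library left out.

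Zfp729a kept its second-set call under all 12 alternatives and all 18 left-out libraries, with log2 fold changes from -0.64 to -0.52 and adjusted p up to 0.043. Adgrv1 was called in 5 of 10 alternatives in the first set (adjusted p 0.0069 to 0.83) and 9 of 12 in the second (0.00062 to 0.20), and in 5 and 10 of 18 fits with a library left out; Adcy2 was called in 10 of 12 and 5 of 18, and Nkd2 in 5 of 10 and 6 of 18. No value past the threshold changed sign. The replicate numbers did not pair the libraries: same-numbered libraries of different groups correlated at -0.304 to 0.134 over 15 pairs, 1 of them over 0.1, and 1 of 11 libraries correlated best with its own number. With the replicate block Adgrv1 (adjusted p = 0.061) and Adcy2 (0.13) were not called in the second set. No paired analysis was possible for DKO 5, 7 and 10 against WT because they share no numbers. How far depth sets the width of the intervals of low genes was not tested.

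Among the 20 named genes, 65 of 1160 recomputed values turned sign, in 10 genes not called in the comparison concerned, and 0 of the 65 were called (smallest adjusted p 0.60). The cause was not tested. In DKO 5, 7 and 10 against WT, limma-voom gave log2 fold changes of 0.226 for Erap1, 0.0934 for Gm10139 and 0.058 for Zfp459, and the sex covariate gave -0.0222 for Ndufs6 and 0.0137 for Zfp459. For 2210408I21Rik they were 0.000734 with RLE, 0.000379 with DESeq2, 0.00842 with no filter, 0.00691 with counts rebuilt from TPM and 0.039 with the length trend removed. With a library left out, the range was -0.684 to 0.131 for Cast, -0.754 to 0.327 for Erap1, -0.278 to 0.554 for 2210408I21Rik, -0.283 to 0.0619 for Gm10139, -0.0871 to 0.0829 for Zfp459 and -0.000259 to 0.0676 for Ndufs6.

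In Irx4KO and DKO 2, 3 and 4 against Irx3KO and dHet, Med10 was at -0.00188 with RLE, -0.00243 with DESeq2, -0.00159 with 1 CPM in 3 libraries, -0.0245 with counts rebuilt from TPM and -0.046 with the length trend removed. Ndufs6 was at -0.0256 with counts rebuilt from TPM and -0.0331 with the length trend removed, and Clptm1l at -0.00604 with the length trend removed. The replicate block gave 0.00562 for Srd5a1, 0.000463 for Lpcat1, 0.064 for Cast and 0.0423 for Zfp459. For 2210408I21Rik, limma-voom gave 0.113 and the sex covariate 0.0337. With a library left out, the range was -0.0304 to 0.0514 for Med10, -0.0059 to 0.0964 for Ndufs6, -0.0256 to 0.00419 for Lpcat1, -0.00996 to 0.0284 for Clptm1l, -0.105 to 0.0893 for Cast, -0.196 to 0.0376 for Erap1, -0.265 to 0.162 for 2210408I21Rik and -0.378 to 0.15 for Zfp459.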
